A study of Mus musculus with 36 samples.

Results

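Brca1, Brca2 and 8 genes for their partner proteins were followed through 36 RNA-seq libraries of mouse pluripotent cells. The 10 genes (Brca1, Bard1, Babam2, Uimc1, Rbbp8, Brip1, Palb2, Brca2, Hsf2bp and Fignl1) were taken by Ensembl identifier from 49671 genes in the table of read counts, and all 10 were among the 23501 genes with enough reads to be tested. They were not chosen by a threshold on their values, but earlier results of these data were known when they were chosen.

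BRCA1 and BRCA2 act in homologous recombination, the repair of broken DNA by copying an intact sister. BRCA1 pairs with BARD1 in a ubiquitin ligase and joins separate complexes through ABRAXAS1, BRIP1 or RBBP8, while PALB2 links BRCA1 to BRCA2, a mediator of recombination that works on single-stranded DNA. Embryonic stem cells divide fast with a short first gap phase and are known for strong use of this pathway.

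The libraries came from 3 mouse lines in which Bod1L, Setd1a or Mll2 (gene symbol Kmt2b) was removed. Bod1l codes for a protein known to guard replication forks under stress, and Setd1a and Kmt2b code for methyltransferases of histone H3 lysine 4. The groups were Bod1L KO, Setd1a KO and Mll2 KO cells and the WT cells of each line, in 3 media: 2i (LIF, PD0325901 and CT99021, called naive embryonic stem cells), FCS (LIF with serum, called cycling embryonic stem cells) and EpiSC medium (Activin A and FGF2, called epiblast-like). Each of the 18 groups had 2 libraries named biological replicates of 1 line, so p-values measure the spread between such cultures. Tamoxifen stands in the names of KO cells alone, in all 3 lines. Within a line the drug and the loss of the gene cannot be told apart. Ages and passage numbers were not used here.

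Gene counts summed to 24490158 to 40591108 in a library (median 32608442). Bod1l was lower in every Bod1L KO library (33.6 to 62.2 CPM, the counts of a gene scaled to the same total in each library) than in every WT library of that line (166 to 345 CPM). Setd1a held 37.3 to 43.8 CPM in Setd1a KO libraries, against 40.9 to 58.8 CPM in WT, with an averaged log2 fold change of -0.38 ± 0.139 (± SE; adjusted p = 0.0957, 0.0285 with replicate numbers as a block and 0.0329 on the libraries of the line alone). Kmt2b held 113 to 145 CPM in Mll2 KO libraries, against 89.6 to 210 CPM in WT, a log2 fold change of -0.28 ± 0.167 (adjusted p = 0.744). Gene totals can include exons outside a deletion and check these 2 losses weakly. The library labelled Mll2 WT in 2i, replicate 2, held the 89.6 CPM of Kmt2b, below both Mll2 KO libraries in 2i. Without it no member was called in Mll2 KO cells in 2i or on average, and other values that change without it are given beside their results; the WT levels include it. Of 9 markers of naive cells, the summed level was 24.8 to 562 CPM in EpiSC libraries, against 898 to 2887 CPM in FCS and 2552 to 3929 CPM in 2i. Of 7 fibroblast markers (Col1a1, Col1a2, Col3a1, Thy1, Postn, Dcn and Lum), the sum was 82.8 to 6742 CPM in EpiSC libraries, against 14.4 to 250.4 CPM in FCS and 1.94 to 11.95 CPM in 2i.

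The promoter windows of the 5 genes that fell in KO cells, and of Brca1 and Bard1, which had no call, are shown so that the letters beside the starts of genes that fell can be set against those of genes with no call. Each runs from 250 bases before to 50 bases after the gene start in RefSeq (build GRCm38.p6) and is written 5′ to 3′ on the strand of the gene, with matches to any of 9 searched motifs in capitals. The RefSeq starts need not be those of the gene models that were counted. For Babam2 the counted model starts at 31697684, so its window lies wholly after that start.

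Babam2, chr5:31697800-31698099, plus strand: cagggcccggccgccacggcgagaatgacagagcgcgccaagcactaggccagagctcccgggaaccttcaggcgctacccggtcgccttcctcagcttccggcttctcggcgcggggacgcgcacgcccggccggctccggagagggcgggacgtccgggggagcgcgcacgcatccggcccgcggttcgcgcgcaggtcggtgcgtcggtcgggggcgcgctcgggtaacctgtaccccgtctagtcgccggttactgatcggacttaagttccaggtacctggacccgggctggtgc
Palb2, chr7:122132897-122133196, minus strand: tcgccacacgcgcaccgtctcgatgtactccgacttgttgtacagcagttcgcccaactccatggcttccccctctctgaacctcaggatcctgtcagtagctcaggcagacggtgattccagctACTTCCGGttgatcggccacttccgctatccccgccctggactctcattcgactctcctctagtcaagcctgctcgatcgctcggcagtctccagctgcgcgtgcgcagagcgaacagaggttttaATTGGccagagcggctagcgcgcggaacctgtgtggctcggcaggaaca
Brca2, chr5:150522371-150522670, plus strand: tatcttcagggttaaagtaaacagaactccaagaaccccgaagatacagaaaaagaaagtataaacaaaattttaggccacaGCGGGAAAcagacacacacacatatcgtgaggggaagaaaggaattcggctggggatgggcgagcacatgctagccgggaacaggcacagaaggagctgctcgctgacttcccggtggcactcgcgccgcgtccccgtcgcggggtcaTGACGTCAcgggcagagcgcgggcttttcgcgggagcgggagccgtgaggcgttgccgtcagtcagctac
Hsf2bp, chr17:32034459-32034758, minus strand: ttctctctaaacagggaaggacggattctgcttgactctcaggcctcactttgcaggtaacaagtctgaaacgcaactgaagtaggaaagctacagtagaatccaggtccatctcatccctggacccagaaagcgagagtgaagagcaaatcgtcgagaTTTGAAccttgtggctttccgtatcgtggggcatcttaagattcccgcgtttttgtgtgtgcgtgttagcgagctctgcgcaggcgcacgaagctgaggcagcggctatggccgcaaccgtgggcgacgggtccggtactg
Fignl1, chr11:11808913-11809212, minus strand: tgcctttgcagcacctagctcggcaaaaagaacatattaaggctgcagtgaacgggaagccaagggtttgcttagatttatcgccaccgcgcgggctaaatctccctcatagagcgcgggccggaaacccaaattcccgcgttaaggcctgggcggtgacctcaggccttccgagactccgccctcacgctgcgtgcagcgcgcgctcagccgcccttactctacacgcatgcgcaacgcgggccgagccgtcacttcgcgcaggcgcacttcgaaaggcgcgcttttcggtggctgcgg
Brca1, chr11:101551906-101552205, minus strand: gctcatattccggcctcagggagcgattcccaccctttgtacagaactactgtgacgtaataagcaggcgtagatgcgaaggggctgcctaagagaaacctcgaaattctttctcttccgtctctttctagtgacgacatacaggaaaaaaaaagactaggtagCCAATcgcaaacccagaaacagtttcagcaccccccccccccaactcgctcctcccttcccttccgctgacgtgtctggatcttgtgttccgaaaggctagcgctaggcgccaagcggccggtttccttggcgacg
Bard1, chr1:71102923-71103222, minus strand: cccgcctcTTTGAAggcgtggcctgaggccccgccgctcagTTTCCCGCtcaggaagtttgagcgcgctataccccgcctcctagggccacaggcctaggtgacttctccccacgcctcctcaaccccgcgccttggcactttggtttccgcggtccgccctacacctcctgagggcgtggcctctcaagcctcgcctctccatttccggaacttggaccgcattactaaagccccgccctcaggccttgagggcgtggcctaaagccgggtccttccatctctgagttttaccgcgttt

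The motifs were searched on both strands as exact letters: CCAAT (NF-Y), TTTGGCGC and TTTCCCGC (E2F), TTTGAA (the cell-cycle CHR element), CCGGAAGT (ETS), TGACGTCA (CREB), and the longer motifs of NRF1, YY1 and a CG-rich palindrome. CCAAT was in 4 of the 9 member windows, those of Brca1, Brip1, Palb2 and Uimc1, against 37.4% of all 32851 mouse windows. TTTGAA was in the windows of Bard1, Hsf2bp and Uimc1 (17.9% of all windows), and TTTCCCGC in those of Bard1 and Brca2 (1.07%). Palb2 also held CCGGAAGT (3.89%), and Brca2 held TGACGTCA (1.79%), which overlapped no other motif. The windows of Babam2 and Fignl1, both genes that fell, held none of the 9 sets of letters. For Babam2 the bases before the start of the counted gene model were not searched. The windows differed in their count of CG dinucleotides: Babam2 had 44 and Fignl1 34, Palb2 and Brca2 25 each and Bard1 23. Brip1 had 21, Hsf2bp 20 and Brca1 and Uimc1 19 each. Over all windows the median was 7 and the upper quartile 20. The GC content was 53.7% to 72.3%, against a median of 52.7% and an upper quartile of 61.7% over all windows. Rbbp8 is named only.

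In both Bod1L KO and Setd1a KO cells 5 of the 10 genes fell, and they were the same 5: Babam2, Palb2, Brca2, Hsf2bp and Fignl1. They code for 1 subunit of the BRCA1-A complex, for the link between BRCA1 and BRCA2, for BRCA2 itself, for a BRCA2 binder and for an ATPase of recombination. Averaged over the 3 media, 1.92% of all tested genes were called lower in Bod1L KO cells and 5.57% in Setd1a KO cells. No member rose in either line (0.102% and 3.29% of all genes did). The median log2 fold change of the 10 genes was -0.76 in Bod1L KO and -0.76 in Setd1a KO cells, against 0.04 and 0.06 over all genes tested. In Mll2 KO cells none of the 10 was called (0.634% of genes were lower and 0.0596% higher), and their median was 0.01. None of the 10 reached an unadjusted p of 0.05 there, and DESeq2 called 0. Bulk libraries cannot tell fewer expressing cells from less RNA per cell. The share of counts from mitochondrial genes differed beside these calls: in 2i it was 5.60% and 5.48% in Bod1L KO cells, against 4.31% and 4.215% in WT cells, and 7.32% and 7.71% in Setd1a KO cells, against 4.11% and 3.43% in WT cells. In EpiSC medium it was 3.94% and 4.71% in Bod1L KO cells, against 2.41% and 2.50% in WT cells, and 6.27% and 3.89% in Setd1a KO cells, against 3.42% and 1.98% in WT cells. In FCS the groups overlapped, at 3.89% and 2.46% in Bod1L KO, 3.89% and 3.625% in WT, 4.33% and 4.25% in Setd1a KO and 5.09% and 3.6005% in WT cells. The part of this share in the results was not tested.

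**Figure D1:**
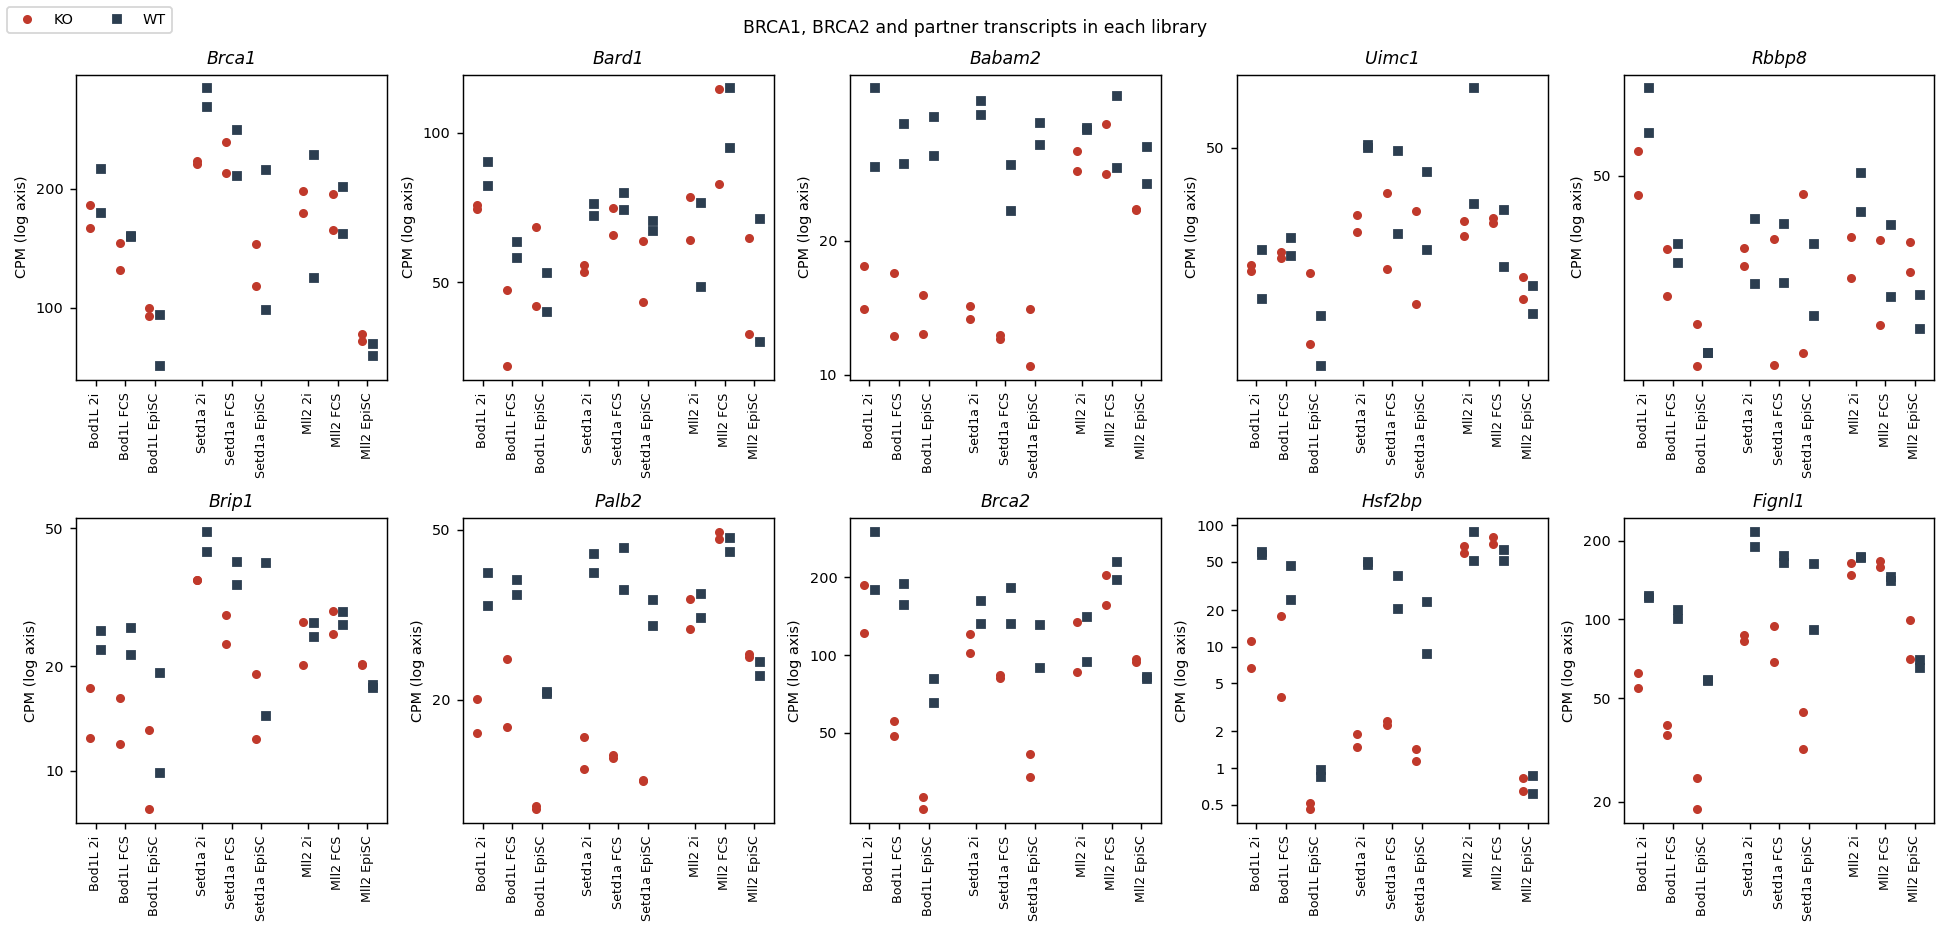
CPM (log axis) of the 10 genes in all 36 libraries, with KO libraries as red circles left of WT libraries as dark squares, for each line and medium. Babam2 lay at 10.5 to 17.6 CPM in Bod1L KO and Setd1a KO libraries, below all WT libraries, and Hsf2bp at 1.14 to 2.44 CPM in Setd1a KO libraries.

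Brca1 (ENSMUSG00000017146, chromosome 11, 101488764 to 101551955, minus strand, GRCm38) codes for the ubiquitin ligase that marks breaks for recombination. It ranged from 95.7 to 182 CPM (median 135) in Bod1L KO libraries, against 71.4 to 224.5 CPM (median 151) in WT. In Setd1a KO libraries it ranged from 114 to 263 CPM (median 225), against 98.9 to 359 CPM (median 253) in WT. The groups overlapped in both lines, and the log2 fold changes were -0.05 ± 0.174 in Bod1L KO cells (adjusted p = 1) and -0.30 ± 0.174 in Setd1a KO cells (adjusted p = 0.308). Bard1 (ENSMUSG00000026196, chromosome 1, 71027498 to 71103146, minus strand), the obligate partner that stabilizes BRCA1, averaged 55.5 ± 15.4 CPM in Bod1L KO cells and 63.0 ± 16.6 CPM in WT cells (SD, n = 6 each). In Setd1a KO cells Bard1 averaged 57.6 ± 8.79 CPM, against 69.2 ± 4.31 CPM in WT cells, a log2 fold change of -0.27 ± 0.163 (adjusted p = 0.336). Neither gene of the BRCA1 ligase was called in any line or medium.

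Babam2 (ENSMUSG00000052139, chromosome 5, 31697684 to 32084962, plus strand) codes for a scaffold of the BRCA1-A complex, which holds BRCA1 on ubiquitin chains beside breaks. It ranged from 12.2 to 17.6 CPM (median 14.6) in Bod1L KO libraries, against 29.2 to 43.9 CPM (median 33.7) in WT. In Setd1a KO libraries it ranged from 10.5 to 14.3 CPM (median 12.8), against 23.3 to 41.1 CPM (median 34.7) in WT. All 6 KO libraries lay below all 6 WT libraries in each line, a separation seen for 0.953% of genes in Bod1L and 2.64% in Setd1a. The fitted levels were 42.3% of WT in Bod1L KO cells (log2 fold change -1.24 ± 0.145; adjusted p = 8.72e-06) and 38.4% in Setd1a KO cells (-1.38 ± 0.146; adjusted p = 6.97e-07).

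Uimc1 (ENSMUSG00000025878, chromosome 13, 55027880 to 55100300, minus strand), for the subunit RAP80 that reads the ubiquitin chains in the same complex, did not follow Babam2. It averaged 33.2 ± 3.30 CPM in Bod1L KO cells and 32.3 ± 4.83 CPM in WT cells (log2 fold change 0.05 ± 0.122; adjusted p = 1). The Setd1a line had 37.8 ± 4.83 CPM of it in KO cells, against 45.02 ± 6.45 CPM in WT cells (-0.25 ± 0.122; adjusted p = 0.225). Rbbp8 (ENSMUSG00000041238, chromosome 18), for the factor CtIP that starts the trimming of broken ends, averaged 39.5 ± 9.61 CPM in Bod1L KO cells and 43.4 ± 14.5 CPM in WT cells. In Setd1a KO cells Rbbp8 averaged 37.6 ± 7.29 CPM, against 39.0 ± 4.44 CPM in WT cells. These SDs cover media as well as replicates, so they do not measure the spread within a medium. In 2i both Bod1L KO libraries (53.9 and 47.3 CPM) lay below both WT libraries (64.8 and 56.7 CPM). The groups overlapped in FCS and EpiSC medium, and in every medium in the Setd1a line. Rbbp8 was not called in either line.

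Brip1 (ENSMUSG00000034329, chromosome 11, 86058138 to 86201193, minus strand), for a helicase that binds BRCA1, lay between the called and uncalled genes. It ranged from 7.77 to 17.4 CPM (median 12.8) in Bod1L KO libraries, against 9.88 to 25.8 CPM (median 21.9) in WT. In Setd1a KO libraries it ranged from 12.4 to 35.5 CPM (median 25.7), against 14.4 to 48.8 CPM (median 39.8) in WT. The groups overlapped, with log2 fold changes of -0.63 ± 0.209 (adjusted p = 0.182) and -0.56 ± 0.208 (adjusted p = 0.0983). When KO and WT libraries of 1 replicate number were paired as a block, Brip1 passed the threshold in both lines (adjusted p = 0.00249 in Bod1L and 0.00397 in Setd1a).

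Palb2 (ENSMUSG00000044702, chromosome 7, 122107262 to 122132985, minus strand), for the bridge between BRCA1 and BRCA2, fell in both lines. It ranged from 11.1 to 24.9 CPM (median 17.0) in Bod1L KO libraries, against 20.7 to 39.6 CPM (median 34.2) in WT. In Setd1a KO libraries it ranged from 12.9 to 16.4 CPM (median 14.2), against 29.9 to 45.3 CPM (median 37.9) in WT. The Setd1a groups did not overlap, and the Bod1L groups overlapped across media but not within a medium. Palb2 kept 54.0% of its WT level in Bod1L KO cells (log2 fold change -0.89 ± 0.113; adjusted p = 2.56e-05) and 37.5% in Setd1a KO cells (-1.42 ± 0.114; adjusted p = 1.78e-08).

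Brca2 (ENSMUSG00000041147, chromosome 5, 150522630 to 150570329, plus strand) fell to 41.4% of WT in Bod1L KO cells (log2 fold change -1.27 ± 0.164; adjusted p = 2.96e-05) and to 51.4% in Setd1a KO cells (-0.96 ± 0.162; adjusted p = 3.59e-04). In 2i it held 186 and 121 CPM in Bod1L KO cells, against 301 and 179 CPM in WT cells. FCS cultures held 55.5 and 48.6 CPM in Bod1L KO cells, against 157 and 188.5 CPM in WT cells. In EpiSC medium it held 25.3 and 28.2 CPM in Bod1L KO cells, against 80.5 and 65.0 CPM in WT cells. The groups were apart in FCS and EpiSC medium and overlapped in 2i. In the Setd1a line the KO libraries held 120.4 and 102 CPM in 2i, 83.8 and 81.5 CPM in FCS and 41.4 and 33.8 CPM in EpiSC medium. The WT libraries held 162 and 132 CPM in 2i, 183 and 132 CPM in FCS and 131 and 88.8 CPM in EpiSC medium, and the KO libraries were the lower ones in each medium.

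Hsf2bp (ENSMUSG00000002076, chromosome 17, 31944769 to 32034508, minus strand) codes for a BRCA2 binder that brings BRCA2 to breaks in mouse meiosis and is also expressed in mouse embryonic stem cells. In Setd1a KO cells it held 1.89 and 1.49 CPM in 2i, 2.44 and 2.28 CPM in FCS and 1.14 and 1.42 CPM in EpiSC medium. In WT cells of that line it held 49.9 and 46.9 CPM in 2i, 20.5 and 38.2 CPM in FCS and 23.4 and 8.72 CPM in EpiSC medium. Every KO library was below every WT library, and 6.08% of the WT level remained (log2 fold change -4.04 ± 0.325; adjusted p = 1.78e-08), the lowest share among the 10 genes. In Bod1L KO cells Hsf2bp held 11.0 and 6.69 CPM in 2i, against 59.7 and 57.0 CPM in WT cells. In FCS it held 3.82 and 17.7 CPM in Bod1L KO cells, against 24.2 and 46.1 CPM in WT cells. In EpiSC medium it was low in both, at 0.459 and 0.516 CPM in Bod1L KO cells and 0.836 and 0.955 CPM in WT cells. The Bod1L average was 29.4% of WT (log2 fold change -1.77 ± 0.309; adjusted p = 0.00104), and it was not called when the Bod1L libraries were fitted alone (adjusted p = 0.0638).

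Fignl1 (ENSMUSG00000035455, chromosome 11, 11787431 to 11808962, minus strand) codes for an AAA ATPase that acts in recombination. It ranged from 18.8 to 62.2 CPM (median 37.7) in Bod1L KO libraries, against 58.4 to 123 CPM (median 104) in WT. In Setd1a KO libraries it ranged from 31.9 to 94.2 CPM (median 75.8), against 91.5 to 217 CPM (median 170.1) in WT. Within each medium the KO libraries lay below the WT libraries, in both lines. The level was 40.0% of WT in Bod1L KO cells (log2 fold change -1.32 ± 0.134; adjusted p = 1.75e-06) and 39.1% in Setd1a KO cells (-1.35 ± 0.134; adjusted p = 2.60e-07). Each of the 5 averaged calls in either line held with any 1 of the 12 libraries of the line left out.

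**Figure D2:**
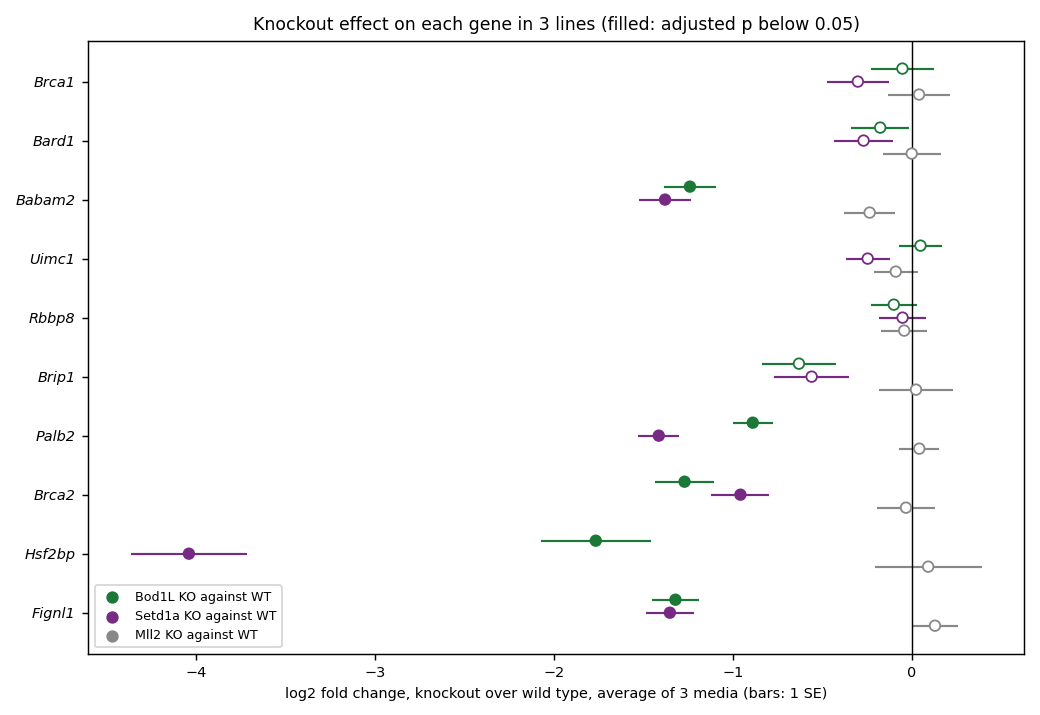
Log2 fold change of KO over WT, averaged over 3 media, for each gene (points, with 1 SE as bars) in the Bod1L, Setd1a and Mll2 lines; filled points passed an adjusted p of 0.05. Babam2, Palb2, Brca2, Hsf2bp and Fignl1 are filled in the Bod1L and Setd1a lines, and no Mll2 point is filled.

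Whether these losses were particular to a line was tested as the difference between knockout effects, with comparisons to Mll2 sharing the Mll2 libraries. Bod1L KO had a lower effect than Mll2 KO for the 5 genes (0.762% of all genes differed that way). The differences in log2 fold change were -1.004 ± 0.202 for Babam2 (adjusted p = 0.0107), -0.93 ± 0.159 for Palb2 (adjusted p = 0.00236) and -1.24 ± 0.229 for Brca2 (adjusted p = 0.00509). They were -1.86 ± 0.429 for Hsf2bp (adjusted p = 0.0306, and 0.0556 on the libraries of the comparison alone) and -1.45 ± 0.187 for Fignl1 (adjusted p = 1.33e-04). Setd1a KO differed from Mll2 KO for the same 5 genes (2.00% of all genes), by -1.14 ± 0.202 for Babam2, -1.45 ± 0.159 for Palb2, -0.93 ± 0.228 for Brca2, -4.13 ± 0.432 for Hsf2bp and -1.48 ± 0.186 for Fignl1 (adjusted p = 0.00148, 5.38e-06, 0.0243, 3.34e-06 and 2.73e-05). Without the library labelled Mll2 WT in 2i, replicate 2, the 5 Bod1L differences stayed called, and Brca2 in Setd1a against Mll2 did not (adjusted p = 0.0567). That Brca2 call was also lost without any 1 of 9 other libraries: Setd1a WT 2i 1, KO 2i 2, both KO libraries and WT 1 in FCS, WT EpiSC 1, Mll2 KO 2i 2, and Mll2 KO 1 and WT 2 in FCS (adjusted p up to 0.0737). The Hsf2bp call in Bod1L against Mll2 was lost without any 1 of 12 of 24 libraries (adjusted p up to 0.0772): Bod1L WT 2i 1, KO 2i 2, WT FCS 2, both KO libraries and WT 2 in EpiSC medium, both Mll2 KO in 2i, and Mll2 KO 1 and WT 2 in FCS and in EpiSC medium. Brip1 differed from the Mll2 line with the replicate block alone (adjusted p = 0.0304 for Bod1L and 0.0451 for Setd1a).

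Between Setd1a KO and Bod1L KO no member differed by the edgeR test, in which 0 genes were called lower and 0.00426% higher. An unadjusted p below 0.05 was reached by 2 members, Palb2 and Hsf2bp. The widest gap was that of Hsf2bp, at -2.27 ± 0.428 log2 units (adjusted p = 0.107). It passed with the replicate block (adjusted p = 0.00984) and with DESeq2 (adjusted p = 0.00134). Palb2 differed by -0.52 ± 0.159 (adjusted p = 0.771), and the other 8 by -0.30 to 0.31.

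In single media the losses were spread over 2i, FCS and EpiSC cells. In 2i 4 genes fell in Bod1L KO cells (0.366% of all genes) and 4 in Setd1a KO cells (1.44%), in each line Babam2, Palb2, Hsf2bp and Fignl1. In FCS 3 genes fell in Bod1L KO cells (0.191%), namely Babam2 (adjusted p = 0.04996), Brca2 and Fignl1, and 4 in Setd1a KO cells (0.740%), the same as in 2i. In EpiSC medium 4 genes fell in Bod1L KO cells (0.430%), all but Hsf2bp of the 5, and all 5 fell in Setd1a KO cells (1.40%). When the libraries of a line, in all 3 media, were fitted alone, no member was called in Bod1L KO cells in any medium (adjusted p = 0.107 to 0.694 for the 11 calls). In Setd1a such a fit lost Fignl1 in 2i and Babam2 and Fignl1 in FCS (adjusted p = 0.0791, 0.0848 and 0.206). With the replicate block, Palb2 and Hsf2bp were also called in FCS for Bod1L (adjusted p = 0.0167 and 0.00243), and Brca2 in FCS for Setd1a (adjusted p = 0.0265). In Mll2 KO cells no member was called in 2i, FCS or EpiSC medium (0.430% of genes were lower in 2i and 0 in the others). Both KO libraries lay below both WT libraries for 7 members in 2i (15.5% of all genes), 8 in FCS (15.8%) and 5 in EpiSC medium (11.5%) in Bod1L. In Setd1a they did so for 9 in 2i (32.8%), 6 in FCS (15.5%) and 6 in EpiSC medium (15.6%).

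The point values of Brca2 differed among media, by less than the test could call. In Bod1L KO cells its log2 fold change was -0.64 ± 0.279 in 2i (adjusted p = 0.983), in FCS -1.73 ± 0.287 (adjusted p = 0.0118) and for EpiSC medium -1.44 ± 0.285 (adjusted p = 0.0176). In the Setd1a line it was -0.40 ± 0.279 in 2i (adjusted p = 0.582), in FCS -0.93 ± 0.281 (adjusted p = 0.208) and for EpiSC medium -1.55 ± 0.286 (adjusted p = 0.00374). An F test for unequal knockout effects in the 3 media called no member in any line (0 genes in Bod1L and Setd1a and 0.00426% in Mll2). At an unadjusted p of 0.05 the edgeR test gave 1 member in Bod1L and 1 in Setd1a, Brca2 in both, and 0 in Mll2, and DESeq2 called 0 in each. For Brca2 its adjusted p was 1 in both lines, and 0.518 in Bod1L and 0.317 in Setd1a with the block.

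**Figure D3:**
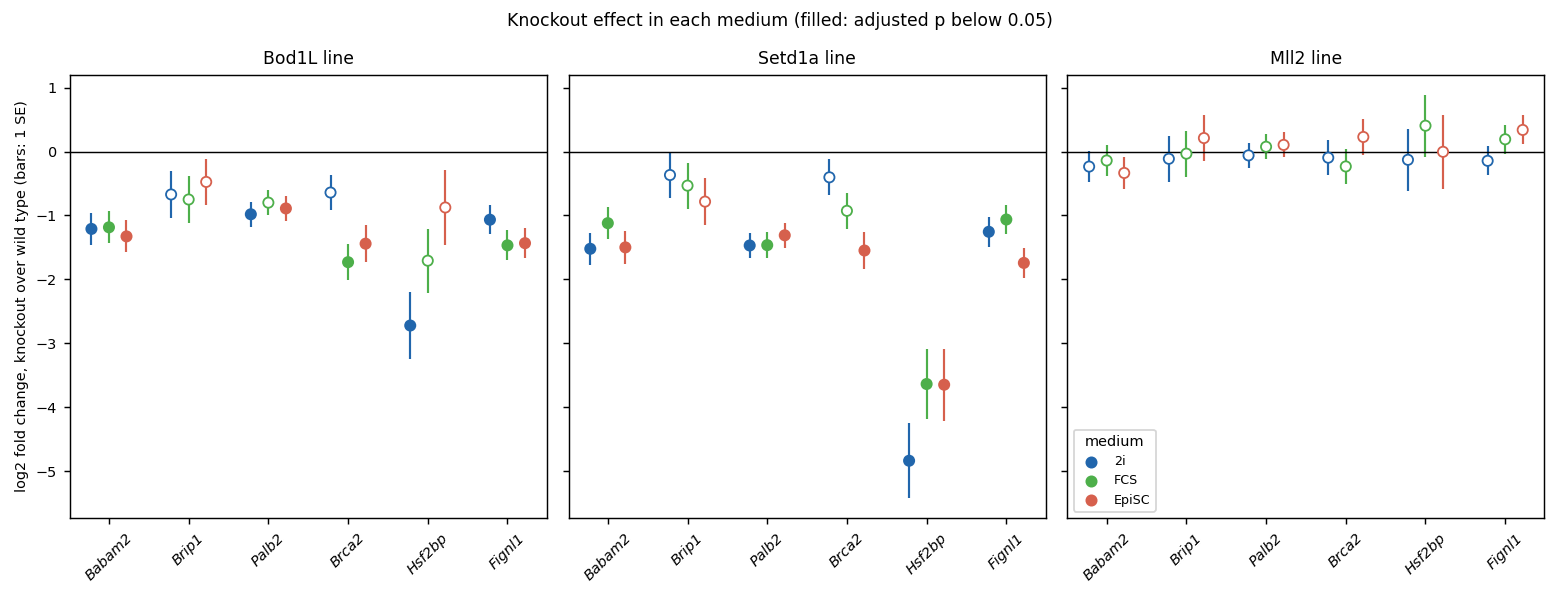
Log2 fold change of KO over WT in each medium (points, with 1 SE as bars, n = 2 libraries a group) for 6 genes in 3 panels, 1 per line; filled points passed an adjusted p of 0.05. Hsf2bp in the Setd1a line lies lowest, at -4.84 in 2i, -3.64 in FCS and -3.65 in EpiSC medium.

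Calls in single media rested on 2 libraries a group. When 1 library was left out, the lone library was taken to vary like the other groups, and the counts of members called were 0 to 3 in 2i, 0 to 2 in FCS and 0 to 2 in EpiSC medium for Bod1L. For Setd1a they were 2 to 4 in 2i, 1 to 2 in FCS and 4 to 5 in EpiSC medium. In 2i the Bod1L calls of Babam2, Palb2 and Hsf2bp were lost without KO 1, WT 1 or KO 2, and that of Fignl1 without any of the 4 (adjusted p up to 1). In FCS Babam2 was lost in both lines without any of the 4 libraries, as was Fignl1 in Setd1a (adjusted p up to 0.546), while Brca2 and Fignl1 in Bod1L were lost without KO 1, KO 2 or WT 2. Hsf2bp in Setd1a in FCS was lost without either KO library (adjusted p up to 0.0511). In EpiSC medium the Bod1L call of Palb2 was lost without any of the 4 libraries, that of Babam2 without KO 1, KO 2 or WT 2, that of Brca2 without KO 1, KO 2 or WT 1, and that of Fignl1 without KO 2 (adjusted p up to 0.448). In Setd1a Palb2 was called in each of these fits, in all 3 media. Babam2 was lost in 2i without KO 2 (adjusted p = 0.0665), Fignl1 in 2i without KO 1, WT 1 or KO 2, and Brca2 in EpiSC medium without WT 1 or KO 2 (adjusted p up to 0.0538).

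Of the 10 genes, 4 start 56 to 194 bases from a gene on the opposite strand in the counted gene models. The neighbours allow a look at both directions of 1 promoter region. Palb2 starts 56 bases from Dctn5, which codes for a dynactin subunit. Dctn5 averaged 42.1 ± 2.99 CPM in Bod1L KO cells and 43.5 ± 2.67 CPM in WT cells (log2 fold change -0.04 ± 0.0984; adjusted p = 1), and 34.4 ± 3.94 CPM in Setd1a KO cells and 39.8 ± 6.10 CPM in WT cells (-0.21 ± 0.0986; adjusted p = 0.214). Babam2 starts 57 bases from Rbks, for ribokinase, which fell in Bod1L KO cells at a low level (0.481 against 1.28 CPM in WT; -1.41 ± 0.335; adjusted p = 0.0216). That call was lost without any 1 of 7 libraries: both KO libraries and WT 2 in 2i, KO 2 and WT 1 in FCS, and KO 1 and WT 2 in EpiSC medium, and on the Bod1L libraries alone (adjusted p = 0.223). In Setd1a KO cells Rbks averaged 1.28 CPM, against 2.47 CPM in WT cells (-0.56 ± 0.324; adjusted p = 0.311), with values of -1.27 in 2i, 0.76 in FCS and -1.17 in EpiSC medium, none of them called. Brip1 starts 177 bases from the antisense RNA Brip1os (-0.09 and 0.03 in Bod1L and Setd1a), and Brca1 starts 194 bases from Nbr1, for an autophagy receptor (-0.14 and -0.30, the last with adjusted p = 0.114, and 0.0376 with the replicate block). Reads were counted by strand, so each pair was counted apart. Difference tests between a member and its neighbour were not run.

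**Figure D4:**
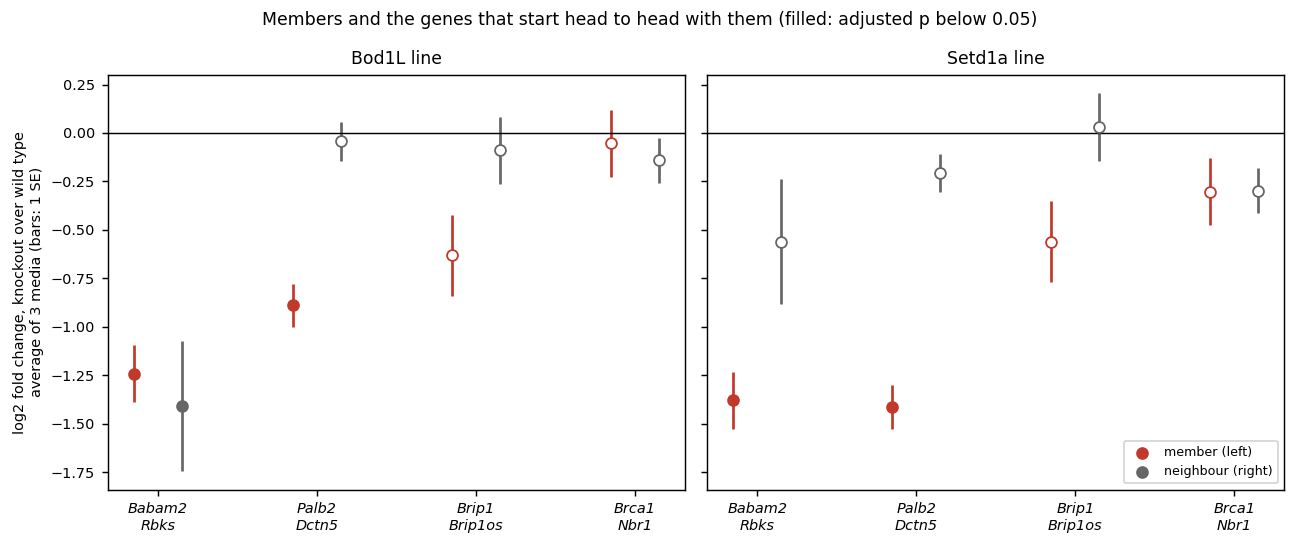
Log2 fold change of KO over WT, averaged over 3 media (points, with 1 SE as bars), for 4 members (red, left of each pair) and the genes that start head to head with them (grey, right), in the Bod1L and Setd1a lines; filled points passed an adjusted p of 0.05. Palb2 lies at -0.89 and -1.42, while Dctn5 lies at -0.04 and -0.21.

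Other genes of the pathway were read from lists of general knowledge, which were chosen with earlier results of these data known. Their counts stand beside the 1.92% of all tested genes called lower in Bod1L KO and the 5.57% in Setd1a KO cells. Of 21 tested genes of strand exchange and its mediators, 4 fell in Bod1L KO and 9 in Setd1a KO cells and none rose; their median log2 fold changes were -0.14 and -0.32. Mcm8, for a helicase of recombination, averaged 10.8 ± 3.23 CPM in Bod1L KO cells and 33.0 ± 6.36 CPM in WT cells (-1.65 ± 0.179; adjusted p = 4.25e-06). In the Setd1a line KO cells had 10.4 ± 4.83 CPM of Mcm8, against 53.5 ± 13.3 CPM in WT cells (-2.44 ± 0.184; adjusted p = 6.47e-09). Of 17 genes of end resection and the dissolution of joined DNA, 3 fell in Bod1L KO and 6 in Setd1a KO cells, with medians of -0.09 and -0.39. They included Rad50, for a subunit of the MRN complex that works with RBBP8, at 29.6 ± 6.84 CPM in Bod1L KO cells and 106 ± 27.3 CPM in WT cells (-1.81 ± 0.245; adjusted p = 5.84e-05). Loss of Setd1a left Rad50 at 38.5 ± 7.83 CPM, against 159 ± 22.9 CPM in WT cells (-2.05 ± 0.247; adjusted p = 4.73e-06). Wrn, for the Werner helicase, was at -1.335 in Bod1L KO and -1.22 in Setd1a KO cells, and Gen1, for a resolvase, at -0.90 and -1.33, all called.

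Of 12 genes of the BRCA1-A complex and of ubiquitin signalling at breaks, 1 fell in Bod1L KO and 4 in Setd1a KO cells, with medians of -0.05 and -0.24 (1.92% and 5.57% of all tested genes fell). Abraxas1, for the subunit through which the A complex holds BRCA1, averaged 7.55 ± 2.47 CPM in Bod1L KO cells and 18.9 ± 4.82 CPM in WT cells (-1.31 ± 0.190; adjusted p = 1.30e-04). With Setd1a removed, Abraxas1 averaged 6.21 ± 1.05 CPM, against 21.0 ± 4.79 CPM in WT cells (-1.74 ± 0.193; adjusted p = 1.41e-06). In Setd1a KO cells Rnf168, for a ubiquitin ligase at breaks, fell by 0.77 (adjusted p = 1.11e-04) and Mdc1, for a break adaptor, by 0.94 (adjusted p = 0.0326). The Mdc1 call was lost in 11 of 12 fits with 1 library left out. Of 20 meiotic and germline genes, 0 fell in Bod1L KO and 3 in Setd1a KO cells, beside the same shares: Psmc3ip (lost in 1 of 12 such fits), Mnd1 (lost in 4) and 4930432K21Rik (BRME1, the partner of HSF2BP in mouse meiosis), the last at 1.17 ± 0.717 CPM in Setd1a KO cells and 2.81 ± 1.06 CPM in WT cells (-1.43 ± 0.444; adjusted p = 0.0448, lost in 10). No gene of these lists rose, and in Mll2 KO cells 1 fell, Mnd1.

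Several members peak in S phase, and cell-cycle genes were read beside them. Of 18 S phase genes, 0 were called in Bod1L KO cells (median 0.005) and 4 fell in Setd1a KO cells (median -0.41, all 18 below 0; 5.57% of all tested genes fell), among them Mcm3, E2f1 and Cdc6 at -0.59, -0.57 and -0.55 (adjusted p = 0.0350, 0.0178 and 0.0497). These calls were lost in 10, 5 and 11 of 12 fits with 1 library left out, and that of Cdc6 also on the Setd1a libraries alone (adjusted p = 0.104). Their summed level was 1866 to 5510 CPM (mean 3713) in Bod1L KO libraries, against 2431 to 4507 CPM (mean 3726) in WT. In Setd1a KO libraries it was 1765 to 3522 CPM (mean 2881), against 3203 to 4289 CPM (mean 3858) in WT. Of 14 genes of G2 and mitosis, 0 were called in Bod1L KO cells and 1, Ccnb2, fell in Setd1a KO cells (-1.10 ± 0.171; adjusted p = 1.29e-04). The part of the cell cycle in the Setd1a values was not tested. The fibroblast marker sums of EpiSC libraries were 1193 to 5236 CPM in Bod1L KO and 1097 to 6742 CPM in WT, 162 to 3999 CPM in Setd1a KO and 145.5 to 1083 CPM in WT, and none of the 7 markers was called between KO and WT on average, although all 7 lay above 0 in Setd1a (median log2 fold change 1.44; 0.001 in Bod1L). Their part in the EpiSC results was not tested. In 2i the sums stayed at or under 11.95 CPM.

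In WT cells the order of levels per length, in TPM (counts divided by exon length and scaled to the same total) over all 18 libraries, was Fignl1 (62.4 ± 22.5, SD), Brca1 (49.7 ± 23.8), Bard1 (28.7 ± 8.64), Hsf2bp (26.2 ± 18.1), Brca2 (25.1 ± 10.5), Rbbp8 (24.7 ± 5.26), Uimc1 (17.8 ± 3.00), Babam2 (16.8 ± 3.19), Palb2 (11.1 ± 2.70) and Brip1 (8.52 ± 3.42). The SD covers lines and media as well as replicates. TPM does not use the library scaling of CPM. In Mll2 WT in 2i, replicate 2, Hsf2bp held 88.3 CPM and 42.8 TPM, against 50.95 CPM and 39.1 TPM in replicate 1. Brca1 held 119 CPM and 20.2 TPM in that library, against 243 CPM and 65.1 TPM in replicate 1. The place of Hsf2bp in this order differed by medium, at 41.8 TPM in 2i (rank 3 of 10), 31.9 TPM in FCS (rank 4) and 5.00 TPM in EpiSC medium (rank 10). Of the 9 steps in this order, those between Rbbp8 and Uimc1 and between Babam2 and Palb2 were wider than the SD of both genes.

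Most of the genes differed between media in WT cells. In EpiSC medium 8 of 10 were lower than in 2i (27.4% of all genes were; 9 of 10 without the library labelled Mll2 WT in 2i, replicate 2) and 7 were lower than in FCS (20.6%), while between FCS and 2i none was called (14.5% of genes were lower and 13.3% higher). Rbbp8 and Hsf2bp had an unadjusted p below 0.05 in that last comparison, and DESeq2 called 0. Brca1 averaged 108 ± 57.7 CPM in EpiSC medium, 193 ± 51.9 CPM in FCS and 240.5 ± 89.7 CPM in 2i (n = 6 each), a log2 fold change of -1.18 ± 0.176 for EpiSC against 2i (adjusted p = 8.34e-06). Brca2 averaged 88.0 ± 22.3 CPM in EpiSC medium, 181 ± 33.5 CPM in FCS and 168 ± 71.1 CPM in 2i (-0.89 ± 0.162 against 2i; adjusted p = 8.91e-05). Fignl1 averaged 84.4 ± 40.4 CPM in EpiSC medium and 166 ± 37.7 CPM in 2i (-1.03 ± 0.132; adjusted p = 1.18e-06). Against 2i, Palb2, Uimc1, Rbbp8 and Brip1 fell by 0.56, 0.44, 0.56 and 0.67. Bard1 was called against FCS (-0.49 ± 0.163, adjusted p = 0.0185) and not against 2i (-0.37 ± 0.163, adjusted p = 0.0626). Against 2i, Bard1 had an adjusted p of 0.0278 with a second block, of line and replicate number across media. Its call was lost without Bod1L FCS 2 or EpiSC 1, Setd1a FCS 1, or Mll2 FCS 1 or EpiSC 2 (adjusted p up to 0.0843), and that of Brip1 against FCS (-0.60 ± 0.208; adjusted p = 0.0238) without Bod1L FCS 2 or EpiSC 2, Setd1a FCS 1 or EpiSC 2, or Mll2 FCS 1 or EpiSC 1 (adjusted p up to 0.0897). Babam2 was not called between media, at 32.9 ± 3.99 CPM in EpiSC medium, 31.7 ± 6.60 CPM in FCS and 37.3 ± 5.11 CPM in 2i.

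Hsf2bp had the widest range among media. It held 0.836 and 0.955 CPM in Bod1L WT and 0.863 and 0.613 CPM in Mll2 WT cells in EpiSC medium, against 50.9 to 88.3 CPM in 2i in these lines. In Setd1a WT cells it held 23.4 and 8.72 CPM in EpiSC medium, against 49.9 and 46.9 CPM in 2i. The naive marker sum of EpiSC libraries was likewise higher in Setd1a WT cells (369 to 546 CPM) than in Bod1L WT (24.8 to 73.6 CPM) and Mll2 WT cells (67.0 to 79.8 CPM), and it was 386 to 562 CPM in Setd1a KO cells, where Hsf2bp held 1.14 and 1.42 CPM. All 12 EpiSC libraries and Setd1a KO 2i replicate 1 carry later library numbers than the other 23, so EpiSC medium cannot be told apart from this series of numbers. The fibroblast marker sum in EpiSC medium was 82.8 to 103.6 CPM in Mll2 WT cells. It was 1097 to 6742 CPM in Bod1L WT and 145.5 to 1083 CPM in Setd1a WT cells, against 14.4 to 250.4 CPM in FCS libraries. The sum of 5 primitive endoderm markers was 157 to 183 CPM in these Mll2 WT libraries. It was 6.00 to 79.2 CPM in Bod1L WT and 11.1 to 12.1 CPM in Setd1a WT cells, against 2.22 to 8.42 CPM in FCS libraries. The part of other cell types in the Hsf2bp values was not tested. On libraries of the earlier numbers alone, averaged over 2i and FCS, 5 members fell in Bod1L KO cells and 4 in Setd1a KO cells (Brca2 did not; -0.71, adjusted p = 0.171). In the same fit 1 member, Fignl1, differed between Bod1L and Mll2, and 3 between Setd1a and Mll2, where Babam2 and Brca2 did not (adjusted p = 0.0773 and 0.653).

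**Figure D5:**
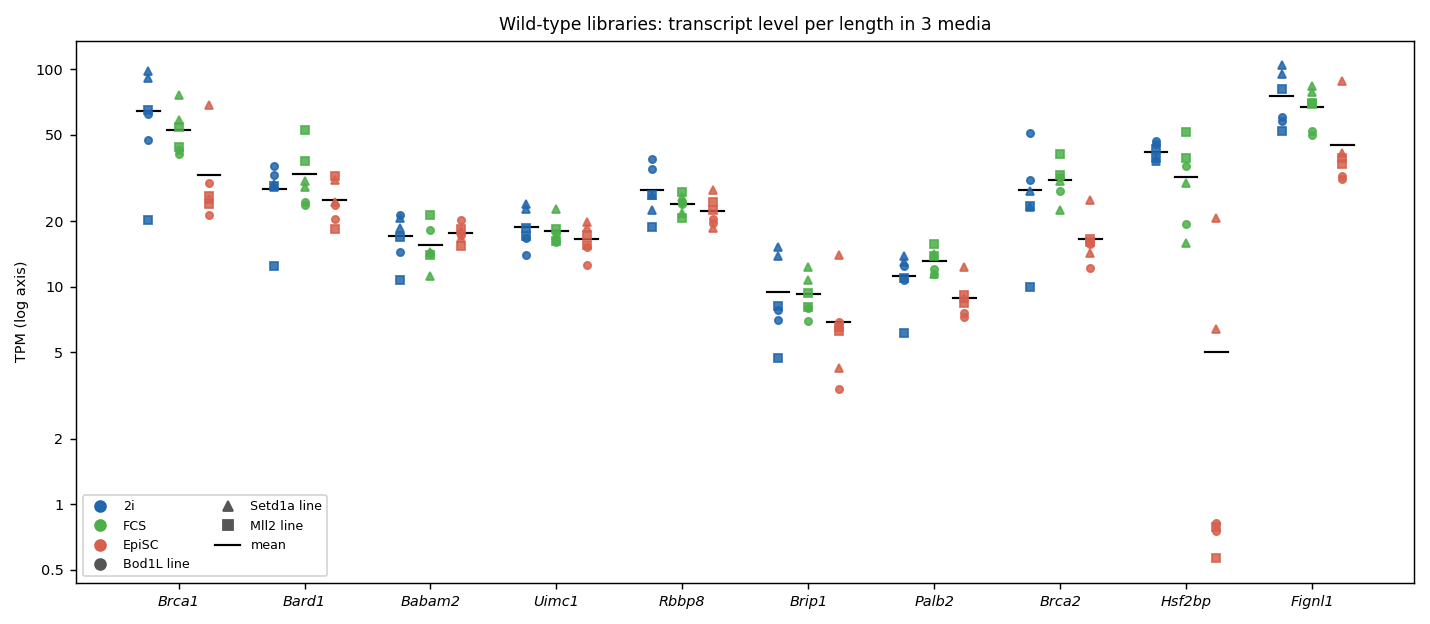
TPM (log axis) of the 10 genes in the 18 WT libraries, by medium (colour, in the order 2i, FCS and EpiSC) and line (marker), with black bars at the mean of 6 libraries. Hsf2bp lies at 0.565 TPM in EpiSC medium in the lowest library, and its triangles, the Setd1a line, lie above the other lines there.

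The WT lines differed from each other in 5 of the 10 genes by an F test over media (14.7% of all genes): Brca1 (adjusted p = 0.00197), Uimc1 (0.0247), Brip1 (0.0153), Hsf2bp (0.00873) and Fignl1 (3.80e-04). Each was higher in the Setd1a line than in the Bod1L line (7.65% of all genes were), by log2 differences of 0.81 ± 0.175, 0.49 ± 0.122, 0.83 ± 0.209, 1.21 ± 0.291 and 0.85 ± 0.132. Brca1, Brip1 and Fignl1 lie on chromosome 11, where 23.4% of 1752 tested genes were higher in the Setd1a than in the Bod1L line, with a median log2 difference of 0.40, against medians of -0.205 to 0.127 on the other autosomes and X. Against the Mll2 line 19.6% of the chromosome 11 genes were higher, with a median of 0.43. Nbr1, the chromosome 11 neighbour of Brca1, was higher than in the Bod1L line as well (0.43 ± 0.116; adjusted p = 0.0155). The differences of these 3 members therefore stand beside a shift of their whole chromosome, and a test against that shift was not run. In KO against WT cells the median of chromosome 11 was 0.05 in Bod1L and 0.03 in Setd1a. Brca1, Fignl1 and Hsf2bp were also higher in the Setd1a line than in the Mll2 line (4.31%). None of these 3 was called when the WT libraries of the 3 lines were fitted alone (adjusted p = 0.0551, 0.0633 and 0.0528). No member differed between the Mll2 and Bod1L lines (2.17% of genes were lower and 2.48% higher). In that comparison Uimc1 and Fignl1 had an unadjusted p below 0.05, and DESeq2 called 0. On WT libraries alone the F calls of Brip1 and Uimc1 were lost (adjusted p = 0.0507 and 0.0823). The F call of Hsf2bp was lost without Setd1a WT EpiSC replicate 1 (adjusted p = 0.0747), and that of Brip1 without Setd1a WT replicate 1 in any medium (adjusted p up to 0.146). The F call of Uimc1 was lost without any 1 of 8 libraries: Bod1L 2i 1, both Bod1L FCS, Bod1L EpiSC 2, both Setd1a 2i, Setd1a FCS 2 and Setd1a EpiSC 2 (adjusted p up to 0.0820). The means of Hsf2bp in CPM do not follow its fitted difference, which weighs the media equally on a log scale: 31.3 ± 16.3 CPM in Setd1a WT cells, against 31.5 ± 26.8 CPM in Bod1L WT and 42.3 ± 35.0 CPM in Mll2 WT cells. Brip1 in Setd1a against Bod1L was lost without Setd1a WT EpiSC replicate 1 (adjusted p = 0.0797). Against Mll2, Hsf2bp and Fignl1 were lost in 9 and 11 of 12 fits with 1 library left out (adjusted p up to 0.208 and 0.183). Hsf2bp held only without Setd1a FCS 1 or EpiSC 2 or Mll2 2i 2, and Fignl1 only without Setd1a EpiSC 2. Babam2, Palb2 and Brca2, 3 of the 5 genes that fell in KO cells, were not called among WT lines.

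Over the 18 group means, centred per gene on a log2 scale, the genes most like each member were found among 12234 genes of at least 5 CPM by the root mean square distance, for which a lower value is more alike for a given gene. The distance grows with how far a gene itself varied over the groups, by a root mean square of 0.230 for Uimc1 and 0.239 for Rbbp8, against 0.815 for Brca2, 0.874 for Fignl1 and 2.59 for Hsf2bp. Rpa1 and Crlf3 lay closest to Brca1 (0.177 and 0.180, where the median gene lay at 0.723), and Dtl and Alg6 to Bard1 (0.178 and 0.197). Haus1 and Zranb3 lay closest to Babam2 (0.174 and 0.204), and Trim23 and Zwilch to Palb2 (0.171 and 0.186). Cdca2 and Cct4 lay closest to Uimc1 (0.135 and 0.138), Celf1 and Cacul1 to Rbbp8 (0.123 and 0.142) and Nup88 and Tbcd to Brip1 (0.230 and 0.239). BC048403 and Mlh3 lay at 0.414 and 0.431 from Brca2, Zfp213 and 1110008L16Rik at 0.366 and 0.378 from Fignl1, and Lrrc34 and Pycard at 1.09 and 1.14 from Hsf2bp, where the median gene lay at 2.59. Rpa1, Crlf3, Nup88 and Tbcd lie on chromosome 11, as do Brca1 and Brip1. These distances describe these libraries, whose groups share lines and media.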

How the data were processed

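Total RNA was poly(A)-selected, reverse transcribed from random primers and made into strand-specific libraries, per the labels' protocols. The deposited table holds raw counts of reads per gene, made with featureCounts 1.5.2 on the reverse strand with Ensembl release 87 gene models, per the file headers. The aligner was GSNAP and the build GRCm38, per the submitters' processing notes. Of 49763 lines, 92 spike-ins with 0 counts were removed. Deposited counts were fitted with edgeR 4.0.16 in R 4.3.3 (quasi-likelihood F test, TMM scaling, filterByExpr at 10 counts, 18 groups, 18 residual degrees of freedom). Genes with a Benjamini-Hochberg adjusted p below 0.05 over 23501 genes were called, checked on simulated data. CPM uses TMM library sizes, and TPM the exon lengths of the table. Averages weigh media or lines equally. Alternatives were DESeq2 1.42.0, other scalings, no filter, the comparison's own libraries, a replicate block and each library left out. The comparison's own libraries were all those of the line or lines for KO effects, single media included. For WT comparisons they were all WT libraries. The block had 18 pairs of KO and WT libraries and 9 residual degrees of freedom. For WT media a second block joined libraries of 1 line and replicate number across media. KO and WT libraries of 1 number deviated together (r = 0.401 to 0.848 over 12244 genes), so pairing was inferred from these data, not from labels. Across media, within a line and genotype, r was -0.25 to 0.413. Named genes were the members, targeted genes, head-to-head neighbours, the 2 genes most like each member and the most changed genes of each list. Members and lists were chosen with earlier results of these data known. Promoters came from RefSeq.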

Additional observations from a re-analysis of the deposited data

Results flagged for a closer look

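The knockout effects of 5 genes differed between lines by a test of the difference itself, which is what singled them out. In log2 units, Bod1L KO against Mll2 KO differed by -1.004 for Babam2, -0.93 for Palb2, -1.24 for Brca2, -1.86 for Hsf2bp and -1.45 for Fignl1. Setd1a KO against Mll2 KO differed by -1.14 for Babam2, -1.45 for Palb2, -0.93 for Brca2, -4.13 for Hsf2bp and -1.48 for Fignl1. Both sets use the Mll2 libraries, so they are not independent of each other. Groups of 2 libraries are too small for a test of single outlying libraries.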

How the results depend on the processing

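No called direction turned round in any setting. Averaged over media, 4 to 6 members were called in Bod1L and in Setd1a under the settings tried, and 0 in Mll2. On the libraries of the comparison alone, Hsf2bp lost its averaged Bod1L call (adjusted p = 0.0638), and members called were 0 in Bod1L in 2i, FCS and EpiSC medium, 2 in Setd1a in FCS and 3 among WT lines. With no filter on low counts, which tests more genes, they were 1 in Bod1L in 2i, 2 in Bod1L in EpiSC medium, 2 in Setd1a in FCS, 3 in Bod1L against Mll2 and 1 in Setd1a against Bod1L. DESeq2 also gave 1 there. With the replicate block, pairing KO and WT, the counts were 5 in Bod1L in FCS and 1 in Setd1a against Bod1L; other counts of members stayed within 1.5 times. On earlier library numbers in 2i and FCS, a setting chosen after seeing the data, Bod1L against Mll2 had 1 and Setd1a against Mll2 had 3. Leaving out 1 library at a time gave 0 to 3 members in Bod1L in 2i, 0 to 2 in FCS and 0 to 2 in EpiSC medium. It gave 2 to 4 in Setd1a in 2i, 1 to 2 in FCS, 0 to 1 in Setd1a against Bod1L and 3 to 5 among WT lines. Of 744 values of single genes under other settings, 664 kept their side of the threshold, 73 lost the call and 7 gained one. Of 1392 with 1 library left out, 215 lost the call and 3 gained one. WT line differences could not be fitted with the block. Hsf2bp in EpiSC medium rested on 15 to 40 counts a library in the Bod1L KO, Setd1a KO, Bod1L WT and Mll2 lines.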

Other observations

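Ratios of levels per length within a library give another view of the BRCA2 partners. Hsf2bp per Brca2, in TPM, was 0.120 ± 0.0465 in Setd1a KO libraries and 1.03 ± 0.497 in WT libraries (SD, n = 6 each). In the Bod1L line it was 0.446 ± 0.608 in KO libraries and 0.719 ± 0.570 in WT libraries, with overlapping ranges. Palb2 per Brca2 was 0.410 ± 0.192 in Setd1a KO libraries and 0.524 ± 0.0589 in WT libraries, and 0.591 ± 0.306 in Bod1L KO libraries and 0.409 ± 0.119 in WT libraries. Bard1 per Brca1 was 0.642 ± 0.197 in Bod1L KO libraries and 0.705 ± 0.213 in WT libraries, and 0.468 ± 0.176 in Setd1a KO libraries and 0.488 ± 0.246 in WT libraries. The means and SDs of these ratios pool the media. Palb2 per Brca2 ranged from 0.201 to 0.953 in Bod1L KO libraries, against 0.244 to 0.591 in WT libraries. The Bod1L KO libraries lay above WT in FCS and EpiSC medium, and the groups overlapped in 2i. Hsf2bp per Brca2 ranged from 0.0832 to 1.67 in Bod1L KO libraries. These ratios were not tested.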
